A study of Mus musculus with 4 samples.

Results

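Levels of 29 genes of fatty acid oxidation and ketone body formation were described in liver cells of mice with experimental alcoholic hepatitis. The genes were chosen by name, and each was found by its Ensembl identifier in the deposited count table, which held 41128 identifiers. Each of the 29 had at least 10 counts in 1 or more libraries, the minimum for a comparison, as had 21640 genes in all. The mice were C57BL/6 animals, and the labels state neither age nor sex. A high cholesterol and fat diet eaten freely supplied 40% of their calories and an alcoholic liquid diet delivered into the stomach supplied 60%, with a binge every week. The liver was digested with collagenase, hepatocytes were spun out at low speed and leukocytes were taken out with beads against CD45. From the remaining presorted CD45- cells, 3 populations were sorted on the surface proteins Prom1 (prominin-1, CD133), CD49f (integrin alpha 6) and CD45. The libraries came from Prom1+CD49f+CD45- cells, Prom1-CD49f+CD45- cells, cells labelled Prom1+CD49f+CD45+ and the presorted CD45- cells, with 1 library each and the RNA of 2 mice pooled in each library. All 4 populations came from mice with hepatitis, and no healthy liver was analysed here.

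Fatty acids enter this pathway as acyl-CoA thioesters, which acyl-CoA synthetases make. Long chains cross into the mitochondrion as carnitine esters, and a cycle of dehydrogenation, hydration, oxidation and thiolysis then shortens them to acetyl-CoA, while the electrons pass through electron transfer flavoprotein to the respiratory chain. Peroxisomes shorten chains that are too long for mitochondria, and cytochromes of the Cyp4a family oxidize the far end of the chain. Hepatocytes turn the acetyl-CoA into ketone bodies and hold most of this capacity in the liver. Many of these genes are targets of the nuclear receptor PPAR alpha.

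Summed counts ran from 14670239 in the Prom1-CD49f+CD45- library to 52293939 in the presorted library. Levels are given as scaled CPM, which are CPM corrected for library composition by edgeR's TMM factors. Ratios carry an exact 95% interval, and a call of higher or lower needed the whole interval to lie beyond 2-fold. With 1 library per population no difference has a replicate check, no test was made, and intervals cover counting error only. In these mixed cells, fewer cells of a type and less RNA per cell cannot be told apart.

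Markers of other cells moved with the populations. The 30 hepatocyte markers summed to 8900.2 scaled CPM in Prom1+CD49f+CD45- cells, 8974 in Prom1-CD49f+CD45- cells, 1017 for the library labelled Prom1+CD49f+CD45+, with 46198 in presorted cells. Alb (albumin) alone gave 3241, 1265, 153 and 5267 of these sums in the same order. In Prom1+CD49f+CD45- over Prom1-CD49f+CD45- cells Alb went against most of its list, of which 18 of 30 were called lower and 2 higher, with a median log2 ratio of -1.42. The 20 cholangiocyte markers, of bile duct epithelium, summed to 59768, 22441, 1202 and 11740.4 in that order, and Krt19, a duct keratin, stood at 301, 209, 5.76 and 74.1. The 15 endothelial markers summed to 192, 9149, 21180.4 and 15592 in that order. Of the genes sorted on, Prom1 stood at 355 scaled CPM in Prom1+CD49f+CD45- cells, 31.1 in Prom1-CD49f+CD45- cells, 11.4 for the library labelled Prom1+CD49f+CD45+ and 67.1 for presorted cells, so that it was lowest where the label says Prom1+. Ptprc, the gene of CD45, stood at 6.33, 3.6, 14.5 and 21 in that order, highest of the 3 sorts in the library labelled CD45+ and below presorted cells. Itga6, the gene of CD49f, stood at 72.9, 50.5, 127 and 110 in that order. Both CD45- sorts, labelled CD49f+, thus lay below presorted cells in Itga6. Sums of 14 macrophage markers ran from 92.8 to 1136, those of 15 mesenchymal and mesothelial markers from 76.7 to 1385 and those of 12 lymphoid markers from 9.25 to 41.1 scaled CPM. Markers at 0 counts included Thy1, Cd3e and Cd2 in Prom1+CD49f+CD45- cells, Cd3e and Cd3g in Prom1-CD49f+CD45- cells and Wt1 in the library labelled Prom1+CD49f+CD45+. The part that these cells have in any level given here was not tested.

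Most of the genes peaked in presorted cells. Of the 29, 25 were highest in presorted cells, 3 in Prom1+CD49f+CD45- cells and 1 in the library labelled Prom1+CD49f+CD45+, where 20 were lowest. Shares of all genes highest or lowest in each library were not computed, so these counts have no background beside them. They also rest on TMM scaling. With library totals, 10 genes below presorted cells in Prom1+CD49f+CD45- cells passed above them. With TMM scaling the levels of all 29 genes summed to 2699 scaled CPM in Prom1+CD49f+CD45- cells, 2274 in Prom1-CD49f+CD45- cells, 1516 for the library labelled Prom1+CD49f+CD45+, with 4292 in presorted cells. Called lower than presorted were 6 of the 29 in Prom1+CD49f+CD45- cells, where 15.6% of all genes were, 13 in Prom1-CD49f+CD45- cells, where 14.1% were, and 19 in the library labelled Prom1+CD49f+CD45+, where 12.1% were. Prom1+CD49f+CD45- cells were called higher in 4 genes and lower in 2 against Prom1-CD49f+CD45- cells, where 15.5% of all genes were higher and 12.7% lower. They were called higher in 11 and lower in 2 against the library labelled Prom1+CD49f+CD45+, where 12.5% of all genes were higher and 13.1% lower. The gap between the highest and the lowest library differed between genes, from 1.57-fold for Hadhb to 100.1-fold for Cyp4a10.

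**Figure D1:**
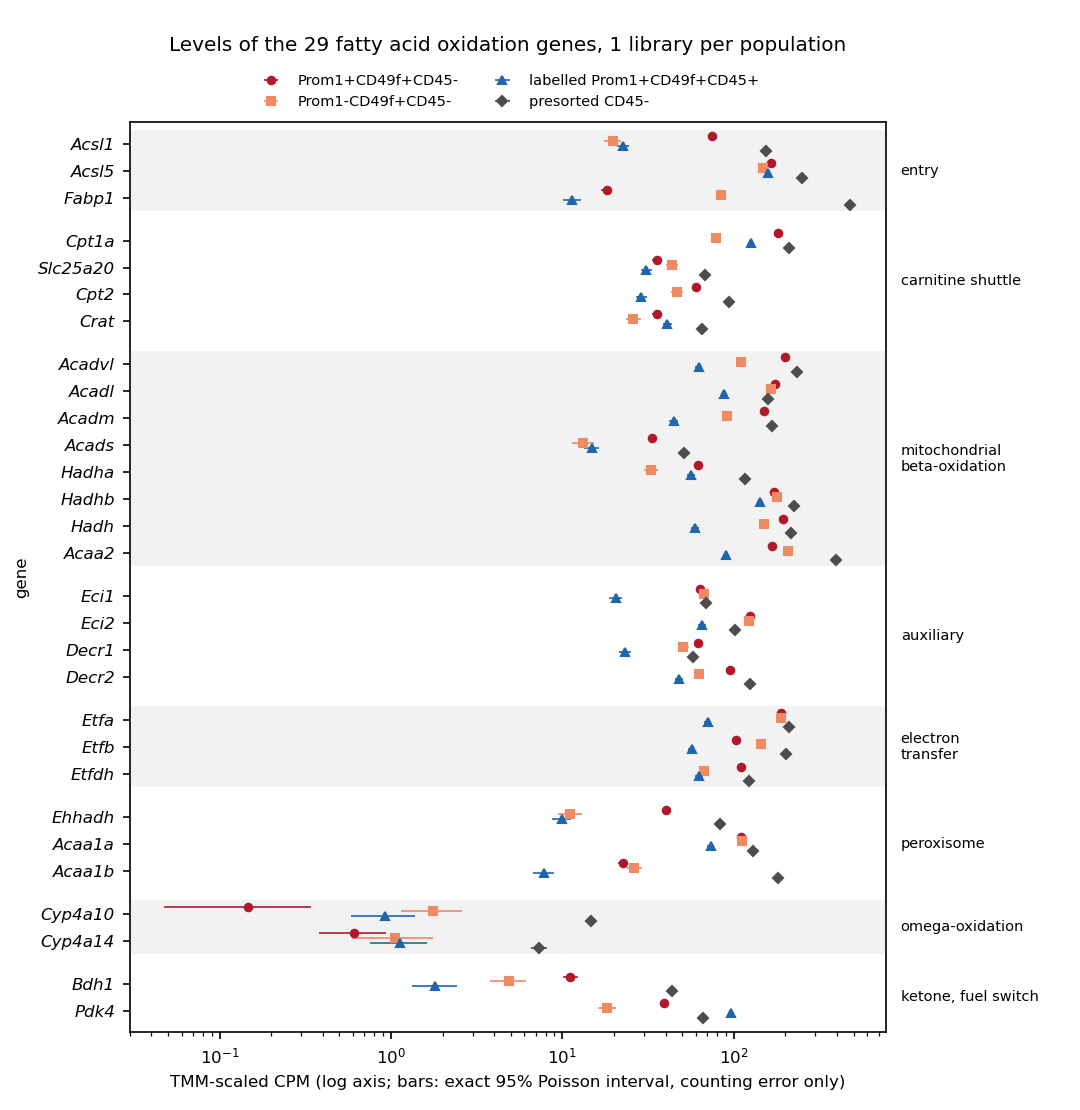
Level of each of the 29 genes in the 4 libraries, in TMM-scaled CPM on a log axis, ordered by role; each point is 1 library and bars are exact 95% Poisson intervals. The presorted cells lie at the right for most genes, and Fabp1, Acaa1b, Cyp4a10, Cyp4a14 and Bdh1 have all 3 sorted populations well to the left of them.

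Among the genes of entry, the acyl-CoA synthetases Acsl1 and Acsl5 and the fatty acid carrier Fabp1 had different patterns. Acsl1 (ENSMUSG00000018796; chr8:46471037-46536051, plus strand; mm10, as are all positions given), whose product is the main synthetase of long-chain acyl-CoA in liver, stood at 74.5 scaled CPM in Prom1+CD49f+CD45- cells, 19.6 in Prom1-CD49f+CD45- cells, 22.6 for the library labelled Prom1+CD49f+CD45+, with 154 in presorted cells. It was called higher in Prom1+CD49f+CD45- cells than in Prom1-CD49f+CD45- cells, 3.79-fold (3.35 to 4.31), and than in the library labelled Prom1+CD49f+CD45+, 3.29-fold (3.01 to 3.62). Acsl5 stood at 165 scaled CPM in Prom1+CD49f+CD45- cells, 149 in Prom1-CD49f+CD45- cells, 158 for the library labelled Prom1+CD49f+CD45+, with 251 in presorted cells, so the 3 sorted populations lay close together and below the presorted cells. Per kilobase of transcript, the level of Acsl5 over that of Acsl1 was 2.04 (1.95 to 2.14) in Prom1+CD49f+CD45- cells, 6.95 (6.13 to 7.91) in Prom1-CD49f+CD45- cells, 6.42 (5.87 to 7.03) for the library labelled Prom1+CD49f+CD45+, with 1.5 (1.45 to 1.55) in presorted cells. If the libraries hold 3′ tags, as the series title has it, counts do not scale with length. The size of such a ratio would then not hold. Division by length leaves the order of the populations as it was. Ratios between libraries moved with length, however, which can change that order for genes of unlike length. Transcripts of Acsl1 and Acsl5 have 3897 and 4243 bases. By these ratios the balance of the synthetases was nearest to that of the presorted cells in Prom1+CD49f+CD45- cells. Exons of Acsl5 overlap Zdhhc6 on the other strand, and no source states how counting treated strand.

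Fabp1 (ENSMUSG00000054422; chr6:71199827-71205023, plus strand), the liver fatty acid binding protein that carries fatty acids through the cytosol, stood at 18.1 scaled CPM in Prom1+CD49f+CD45- cells, 84.2 in Prom1-CD49f+CD45- cells, 11.4 for the library labelled Prom1+CD49f+CD45+, with 479 in presorted cells. It was called lower than in presorted cells in every sorted population, 26.4-fold (24.4 to 28.6) in Prom1+CD49f+CD45- cells, 5.68-fold (5.36 to 6.03) in Prom1-CD49f+CD45- cells and 42-fold (37.3 to 47.4) in the library labelled Prom1+CD49f+CD45+. Between the sorts it ran against Acsl1, being called 4.65-fold (4.21 to 5.13) lower in Prom1+CD49f+CD45- cells than in Prom1-CD49f+CD45- cells; with the trend of ratios with transcript length removed it was not called, at a log2 ratio of -0.88. The promoter of Fabp1 is shown because, of 26 promoter windows found for 24 of the 29 genes, it was the only one to hold the pair of half-sites that PPAR alpha and its partner bind, in the loose spelling AGGNCANAGGNCA, where N is any base. The windows are RefSeq's (GRCm38.p6), from 250 bases before to 50 after a gene's RefSeq start, and both strands were searched. That start can differ from the one in the gene positions given, and for Fabp1 it lies further downstream.
Fabp1: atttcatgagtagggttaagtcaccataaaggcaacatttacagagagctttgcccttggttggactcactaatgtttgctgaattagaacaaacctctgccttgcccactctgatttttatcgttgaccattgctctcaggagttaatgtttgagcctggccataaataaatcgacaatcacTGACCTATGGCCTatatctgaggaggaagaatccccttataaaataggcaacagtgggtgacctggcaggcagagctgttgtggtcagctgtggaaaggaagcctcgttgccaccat
The window is chr6:71199629-71199928, plus strand, and the capitals mark the match, on the minus strand at positions -67 to -55 from the RefSeq start. The loose spelling was found in 0.381% of 32851 windows of all genes, and the strict AGGTCANAGGTCA in 0.0396% of them and in none of the 26. A match describes letters and not a bound site, and Crat, Acaa2, Decr1, Cyp4a10 and Cyp4a14 had no window.

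The carnitine shuttle genes stayed within 3.24-fold across the 4 libraries. Cpt1a (ENSMUSG00000024900; chr19:3322334-3385733, plus strand), the outer membrane carnitine palmitoyltransferase that controls the entry of long chains, stood at 182 scaled CPM in Prom1+CD49f+CD45- cells, 78.3 in Prom1-CD49f+CD45- cells, 126 for the library labelled Prom1+CD49f+CD45+, with 209 in presorted cells. It was called higher in Prom1+CD49f+CD45- cells than in Prom1-CD49f+CD45- cells, 2.33-fold (2.18 to 2.48), and its ratio to presorted cells was 0.872 (0.844 to 0.901). That call was lost with DESeq2 size factors, at a log2 ratio of 1.07, and with the length trend removed, at 0.96. Cpt2, the inner membrane transferase, stood at 60.6 scaled CPM in Prom1+CD49f+CD45- cells, 46.6 in Prom1-CD49f+CD45- cells, 29 for the library labelled Prom1+CD49f+CD45+, with 93.8 in presorted cells. Per kilobase, Cpt1a over Cpt2 was 1.65 (1.57 to 1.74) in Prom1+CD49f+CD45- cells, 0.923 (0.838 to 1.02) in Prom1-CD49f+CD45- cells, 2.39 (2.2 to 2.6) for the library labelled Prom1+CD49f+CD45+, with 1.22 (1.18 to 1.27) in presorted cells. The ratio was lowest in Prom1-CD49f+CD45- cells, but its order against presorted cells turned with the length trend removed. In Prom1-CD49f+CD45- over presorted cells the log2 ratios were then -1.06 for Cpt1a and -1.31 for Cpt2. With the trend left in they were -1.42 and -1.01. Without division by length, Cpt1a was above Cpt2 in all 4 libraries. Slc25a20, the translocase that exchanges acylcarnitine for carnitine, ran from 30.9 scaled CPM in the library labelled Prom1+CD49f+CD45+ to 68 in presorted cells. Crat, the carnitine acetyltransferase, ran from 26 in Prom1-CD49f+CD45- cells to 65.1 in presorted cells; its exons overlap Dolpp1 on the other strand.

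The 8 genes of the mitochondrial cycle differed in how far the populations parted. Together they summed to 1156 scaled CPM in Prom1+CD49f+CD45- cells, 949 in Prom1-CD49f+CD45- cells, 559 for the library labelled Prom1+CD49f+CD45+, with 1561 in presorted cells. Of the acyl-CoA dehydrogenases, which take the first electrons, Acadvl (very long chains) stood at 200.4 scaled CPM in Prom1+CD49f+CD45- cells, 110.3 in Prom1-CD49f+CD45- cells, 62.4 for the library labelled Prom1+CD49f+CD45+, with 235 in presorted cells. Acadl (long chains; ENSMUSG00000026003; chr1:66830839-66863277, minus strand) stood at 175 scaled CPM in Prom1+CD49f+CD45- cells, 165 in Prom1-CD49f+CD45- cells, 87.5 for the library labelled Prom1+CD49f+CD45+, with 158 in presorted cells, so that Prom1+CD49f+CD45- cells, Prom1-CD49f+CD45- cells and presorted cells lay within 1.11-fold of each other. The gene for long chains thus lay close in these populations. Acadm (medium chains) stood at 149.9 scaled CPM in Prom1+CD49f+CD45- cells, 91.5 in Prom1-CD49f+CD45- cells, 44.8 for the library labelled Prom1+CD49f+CD45+, with 167 in presorted cells. Acads (short chains; ENSMUSG00000029545; chr5:115110299-115119346, minus strand) stood at 33.6 scaled CPM in Prom1+CD49f+CD45- cells, 13.3 in Prom1-CD49f+CD45- cells, 14.9 for the library labelled Prom1+CD49f+CD45+, with 51.1 in presorted cells. In Prom1+CD49f+CD45- cells over Prom1-CD49f+CD45- cells the ratios were 1.82 (1.72 to 1.92) for Acadvl, 1.06 (1.01 to 1.12) for Acadl and 1.64 (1.54 to 1.74) for Acadm, none called, while Acads was called higher, 2.53-fold (2.16 to 2.96). Against the library labelled Prom1+CD49f+CD45+, Prom1+CD49f+CD45- cells were called higher in Acadvl, 3.21-fold (3.04 to 3.39), Acadm, 3.35-fold (3.14 to 3.58), and Acads, 2.26-fold (2.01 to 2.54), and the ratio for Acadl was 2.0 (1.9 to 2.1). The call for Acads was lost with the authors' values, at a log2 ratio of 0.90, and with the length trend removed, at 1.05. Prom1+CD49f+CD45- cells stood nearest to presorted cells in all of the 4 but Acadl, where Prom1-CD49f+CD45- cells did. Exons of Acadvl overlap Dvl2 on the other strand.

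Hadha (ENSMUSG00000025745; chr5:30118304-30155162, minus strand) and Hadhb (ENSMUSG00000059447; chr5:30155248-30184593, plus strand) encode the alpha and beta subunits of the trifunctional protein, which carries out the later steps on long chains. Hadha stood at 61.6 scaled CPM in Prom1+CD49f+CD45- cells, 32.9 in Prom1-CD49f+CD45- cells, 56.5 for the library labelled Prom1+CD49f+CD45+, with 116 in presorted cells. Hadhb stood at 173 scaled CPM in Prom1+CD49f+CD45- cells, 178 in Prom1-CD49f+CD45- cells, 143 for the library labelled Prom1+CD49f+CD45+, with 225 in presorted cells, with the smallest gap between highest and lowest library of the 29 genes. Per kilobase, Hadhb over Hadha was 5.5 (5.23 to 5.78) in Prom1+CD49f+CD45- cells, 10.6 (9.61 to 11.7) in Prom1-CD49f+CD45- cells, 4.97 (4.67 to 5.29) for the library labelled Prom1+CD49f+CD45+, with 3.8 (3.67 to 3.93) in presorted cells. The subunits were thus not counted in a fixed ratio, although their genes lie head to head on chromosome 5 with 85 bases between the annotated starts. The region between them is shown for that reason.
Hadhb: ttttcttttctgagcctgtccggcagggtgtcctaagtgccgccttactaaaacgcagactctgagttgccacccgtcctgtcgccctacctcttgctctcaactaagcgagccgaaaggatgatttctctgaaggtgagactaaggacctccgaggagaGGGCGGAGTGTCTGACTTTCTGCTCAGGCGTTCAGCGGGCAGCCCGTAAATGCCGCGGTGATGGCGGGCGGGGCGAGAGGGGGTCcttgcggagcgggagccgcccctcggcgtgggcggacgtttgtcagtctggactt
The window is chr5:30155003-30155302, plus strand, RefSeq, GRCm38.p6, and the capitals mark the 85 bases between the annotated ends of the genes. It holds 24 CG pairs, against a median of 15 in the 26 windows and 7 in all windows. The pseudogene Gm13910, with at most 5 counts in a library, shares 62.4% of the 50-base stretches of Hadhb, so the level of Hadhb is uncertain. Hadha has the longer transcript, 4017 against 2048 bases, its exons overlap Garem2 on the other strand, and ratios to the Prom1-CD49f+CD45- library moved with length. Hadh, the hydroxyacyl-CoA dehydrogenase for short and medium chains, stood at 195 scaled CPM in Prom1+CD49f+CD45- cells, 151 in Prom1-CD49f+CD45- cells, 59.5 for the library labelled Prom1+CD49f+CD45+, with 217 in presorted cells. Acaa2, the thiolase that ends each round, stood at 168 scaled CPM in Prom1+CD49f+CD45- cells, 208 in Prom1-CD49f+CD45- cells, 90.0 for the library labelled Prom1+CD49f+CD45+, with 393 in presorted cells, and was the only one of the 8 called lower in Prom1+CD49f+CD45- cells than in presorted cells, 2.34-fold (2.27 to 2.41); with libraries scaled by their totals its log2 ratio was -0.81 and it was not called.

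None of the 4 auxiliary genes for unsaturated chains was called against presorted cells in either CD45- sort. With the length trend removed, Decr2 was called lower in Prom1-CD49f+CD45- cells, at a log2 ratio of -1.38. Eci2, an enoyl-CoA isomerase, stood at 125 scaled CPM in Prom1+CD49f+CD45- cells, 123 in Prom1-CD49f+CD45- cells, 65.3 for the library labelled Prom1+CD49f+CD45+, with 102 in presorted cells. Decr1, the mitochondrial dienoyl-CoA reductase, stood at 61.7 scaled CPM in Prom1+CD49f+CD45- cells, 50.9 in Prom1-CD49f+CD45- cells, 23.2 for the library labelled Prom1+CD49f+CD45+, with 58 in presorted cells. Eci1, the other isomerase, stood at 63.2 scaled CPM in Prom1+CD49f+CD45- cells, 67.2 in Prom1-CD49f+CD45- cells, 20.5 for the library labelled Prom1+CD49f+CD45+, with 69.2 in presorted cells. In both CD45- sorts these 3 lay near presorted cells, and the labelled library lay below. For these 3 genes the ratios to presorted cells were 1.22 (1.17 to 1.27), 1.06 (1.0 to 1.13) and 0.913 (0.863 to 0.965) in Prom1+CD49f+CD45- cells. In Prom1-CD49f+CD45- cells they were 1.2 (1.14 to 1.27), 0.879 (0.808 to 0.955) and 0.971 (0.902 to 1.04). In the library labelled Prom1+CD49f+CD45+ Eci1 was called 3.38-fold (3.08 to 3.72) lower than in presorted cells and Decr1 2.5-fold (2.29 to 2.74) lower, while the ratio for Eci2 was 0.639 (0.604 to 0.677). Decr1 was not called with library totals, at a log2 ratio of -0.98, or the authors' values, at -0.86. Eci2 shares 7.19% of its 50-base stretches with Eci3, and its exons overlap Gm16984 on the other strand. Decr2, the peroxisomal reductase, stood at 94.8 scaled CPM in Prom1+CD49f+CD45- cells, 62.8 in Prom1-CD49f+CD45- cells, 47.9 for the library labelled Prom1+CD49f+CD45+, with 124 in presorted cells, so it lay further below presorted cells than those 3 in both CD45- sorts.

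Electron transfer flavoprotein hands the electrons of the acyl-CoA dehydrogenases to its oxidoreductase, Etfdh, and so to ubiquinone. Its alpha subunit gene Etfa stood at 188 scaled CPM in Prom1+CD49f+CD45- cells, 188 in Prom1-CD49f+CD45- cells, 70.6 for the library labelled Prom1+CD49f+CD45+, with 211 in presorted cells, level between the CD45- sorts at a ratio of 0.999 (0.955 to 1.05). The beta subunit gene Etfb stood at 103 scaled CPM in Prom1+CD49f+CD45- cells, 145 in Prom1-CD49f+CD45- cells, 56.7 for the library labelled Prom1+CD49f+CD45+, with 201 in presorted cells. Per kilobase, Etfa over Etfb was 1.17 (1.12 to 1.21) in Prom1+CD49f+CD45- cells, 0.834 (0.787 to 0.884) in Prom1-CD49f+CD45- cells, 0.799 (0.744 to 0.857) for the library labelled Prom1+CD49f+CD45+, with 0.672 (0.653 to 0.692) in presorted cells. The ratio was thus highest in Prom1+CD49f+CD45- cells, and without division by length Etfa was above Etfb in all 4 libraries. Gm45233, a gene model on the same strand that the count table does not list, shares 67.3% of the 50-base stretches of Etfb, and that value is uncertain. Etfdh stood at 111 scaled CPM in Prom1+CD49f+CD45- cells, 66.9 in Prom1-CD49f+CD45- cells, 62.8 for the library labelled Prom1+CD49f+CD45+, with 122 in presorted cells, and its ratio to presorted cells in Prom1+CD49f+CD45- cells was 0.906 (0.869 to 0.945).

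The 3 peroxisomal genes did not move together. Ehhadh (ENSMUSG00000022853; chr16:21761287-21787807, minus strand), the bifunctional enzyme of the peroxisomal cycle, stood at 40.2 scaled CPM in Prom1+CD49f+CD45- cells, 11.1 in Prom1-CD49f+CD45- cells, 9.95 for the library labelled Prom1+CD49f+CD45+, with 82.7 in presorted cells. It was called higher in Prom1+CD49f+CD45- cells than in Prom1-CD49f+CD45- cells, 3.63-fold (3.07 to 4.31), and than in the library labelled Prom1+CD49f+CD45+, 4.04-fold (3.53 to 4.65). Mice carry a pair of peroxisomal thiolase genes on chromosome 9, Acaa1a (ENSMUSG00000036138; chr9:119339676-119350299, plus strand) and Acaa1b (ENSMUSG00000010651; chr9:119148023-119157093, minus strand). Acaa1a stood at 111 scaled CPM in Prom1+CD49f+CD45- cells, 111 in Prom1-CD49f+CD45- cells, 73.4 for the library labelled Prom1+CD49f+CD45+, with 129 in presorted cells, whereas Acaa1b stood at 22.6 scaled CPM in Prom1+CD49f+CD45- cells, 26.3 in Prom1-CD49f+CD45- cells, 7.82 for the library labelled Prom1+CD49f+CD45+, with 181 in presorted cells. Per kilobase, Acaa1a over Acaa1b was 4.7 (4.35 to 5.08) in Prom1+CD49f+CD45- cells, 4.04 (3.61 to 4.54) in Prom1-CD49f+CD45- cells, 9.0 (7.76 to 10.5) for the library labelled Prom1+CD49f+CD45+, with 0.684 (0.661 to 0.708) in presorted cells. Presorted cells therefore had more Acaa1b than Acaa1a and each sorted population the reverse. The genes share 34% of the 50-base stretches of Acaa1a and 35.6% of those of Acaa1b, so reads could have been split between them, and exons of Acaa1b overlap Dlec1 on the other strand. Their promoters are shown because the levels of these related genes parted.
Acaa1a: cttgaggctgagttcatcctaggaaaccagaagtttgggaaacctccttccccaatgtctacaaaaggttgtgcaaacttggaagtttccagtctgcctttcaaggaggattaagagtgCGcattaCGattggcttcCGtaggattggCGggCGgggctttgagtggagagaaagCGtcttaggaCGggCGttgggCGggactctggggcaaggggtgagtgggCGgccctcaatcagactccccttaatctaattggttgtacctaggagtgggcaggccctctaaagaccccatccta
Acaa1b: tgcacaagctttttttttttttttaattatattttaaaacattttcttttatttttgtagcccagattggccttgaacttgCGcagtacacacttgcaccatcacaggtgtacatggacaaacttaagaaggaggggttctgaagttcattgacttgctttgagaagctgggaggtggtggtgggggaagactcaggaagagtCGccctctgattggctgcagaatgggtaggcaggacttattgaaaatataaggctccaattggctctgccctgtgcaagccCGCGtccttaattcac
The windows, RefSeq, GRCm38.p6, are chr9:119341044-119341343, plus strand, for Acaa1a and chr9:119157044-119157343, minus strand, for Acaa1b, and capitals mark CG pairs, 10 in Acaa1a and 4 in Acaa1b. The Acaa1a window follows RefSeq's start and lies inside the span given above for that gene. In a global alignment 167 bases were identical. Fabp1 and Acaa1b had 3 and 4 CG pairs against a median of 15. Across the 24 genes with a window, the Spearman correlation between CG pairs and log2 ratio was 0.22 for Prom1+CD49f+CD45- over Prom1-CD49f+CD45- cells and -0.04 for Prom1+CD49f+CD45- cells over the library labelled Prom1+CD49f+CD45+. Over presorted cells it was 0.40 in Prom1+CD49f+CD45- cells, 0.30 in Prom1-CD49f+CD45- cells and 0.33 in the library labelled Prom1+CD49f+CD45+. These values are a description across genes, which share their libraries and are no replicates.

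The omega-hydroxylase genes of the Cyp4a family, strong PPAR alpha targets in mouse liver, had few counts in the sorted populations. Cyp4a10 (ENSMUSG00000066072; chr4:115518264-115533649, plus strand) had 5 counts in Prom1+CD49f+CD45- cells, 25 in Prom1-CD49f+CD45- cells, 23 for the library labelled Prom1+CD49f+CD45+, with 649 in presorted cells. Cyp4a14 (ENSMUSG00000028715; chr4:115486200-115496142, minus strand) had 21, 15, 28 and 325 counts in the same order. Both were called lower than presorted in every sorted population, Cyp4a10 by 100.1-fold (42.7 to 309) and Cyp4a14 by 11.9-fold (7.68 to 19.5) in Prom1+CD49f+CD45- cells. Cyp4a10 was also called 12.1-fold (4.55 to 40.5) lower in Prom1+CD49f+CD45- cells than in Prom1-CD49f+CD45- cells. The width of these intervals reflects the 5 counts. Cyp4a31, with 88 counts in Prom1+CD49f+CD45- cells and 342 in presorted cells, shares 30.5% of the 50-base stretches of Cyp4a10, so counts could have been split between them.

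Bdh1 (ENSMUSG00000046598; chr16:31422280-31458901, plus strand), which interconverts the ketone bodies acetoacetate and hydroxybutyrate, stood at 11.1 scaled CPM in Prom1+CD49f+CD45- cells, 4.87 in Prom1-CD49f+CD45- cells, 1.81 for the library labelled Prom1+CD49f+CD45+, with 43.5 in presorted cells. It was called lower than presorted in each sort, 3.9-fold (3.49 to 4.36) in Prom1+CD49f+CD45- cells, 8.92-fold (7.02 to 11.5) in Prom1-CD49f+CD45- cells and 24-fold (17.9 to 33) in the library labelled Prom1+CD49f+CD45+, so the labelled library was the furthest below. Exons of Bdh1 overlap Gm15743 on the other strand. Pdk4 (ENSMUSG00000019577; chr6:5483351-5496309, minus strand), the kinase that shuts down pyruvate dehydrogenase and so spares glucose when fat is burnt, stood at 39.3 scaled CPM in Prom1+CD49f+CD45- cells, 18.2 in Prom1-CD49f+CD45- cells, 96.4 for the library labelled Prom1+CD49f+CD45+, with 65.8 in presorted cells. Alone of the 29, it had its peak in the library labelled Prom1+CD49f+CD45+, where the ratio to presorted cells was 1.47 (1.39 to 1.55). Prom1+CD49f+CD45- cells were called 2.45-fold (2.29 to 2.62) lower than that library.

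Set against the cells they were sorted from, Prom1+CD49f+CD45- cells were called in few genes of the pathway. Called lower were 6 of the 29, namely Fabp1, Acaa2, Acaa1b, Cyp4a10, Cyp4a14 and Bdh1, and none was called higher. Those 6 are 20.7% of the 29, against 15.6% of all 21640 genes called lower and 27.6% called higher; among the 10313 genes with a mean of at least 10 scaled CPM, a background added after the values were seen, 19.6% were lower and 10.5% higher. The share called lower was near the background. The median log2 ratio of the 29 was -0.61, beside 0.19 for all genes and -0.25 for those above 10 scaled CPM. Acadl, Eci2 and Decr1 lay above the presorted level, and 26 of the 29 below it; with library totals in place of TMM the ratio of 10 more passed above 1.

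Prom1-CD49f+CD45- cells lay further below. Called lower than presorted were 13 of the 29, which is 44.8% against 14.1% of all genes, and none was called higher, against 9.77%. Among genes above 10 scaled CPM 21.3% were lower and 5.95% higher. Beside Fabp1, Acaa1b, Cyp4a10, Cyp4a14 and Bdh1, the 13 held Acsl1, 7.83-fold (6.94 to 8.86), Cpt1a, 2.67-fold (2.51 to 2.84), Crat, 2.5-fold (2.25 to 2.8), Acadvl, 2.13-fold (2.02 to 2.25), Acads, 3.85-fold (3.32 to 4.49), Hadha, 3.52-fold (3.2 to 3.88), Ehhadh, 7.46-fold (6.36 to 8.81), and Pdk4, 3.61-fold (3.18 to 4.11). Acadvl was not called with library totals, at a log2 ratio of -0.91, DESeq2 size factors, at -0.97, or the authors' values, at -0.71. Crat was not called with library totals, at -1.14, the authors' values, at -0.92, or the length trend removed, at -0.98. Removal of that trend also ended the call of Cpt1a, at -1.06, and added 8 others. These were Slc25a20, Cpt2, Acadm, Hadh, Acaa2, Decr2, Etfb and Etfdh. It left 19 of the 29 called lower, against 14.2% of all genes. That was as many as in the library labelled Prom1+CD49f+CD45+ under the same setting, against 11.6% there. Over 13446 genes the Spearman correlation of length and log2 ratio was -0.35 in Prom1-CD49f+CD45- over presorted cells. The median log2 ratio of the 29 was -0.98, beside 0.02 for all genes and -0.30 for those above 10 scaled CPM.

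The library labelled Prom1+CD49f+CD45+ lay lowest, though with the length trend removed as many genes were called lower in Prom1-CD49f+CD45- cells. Called lower than presorted were 19 of the 29, 65.5% against 12.1% of all genes and 15.1% of those above 10 scaled CPM. None was called higher, against 23.8% of all genes and 3.09% of those above 10 scaled CPM. The 10 not called were Acsl5, Cpt1a, Crat, Acadl, Hadha, Hadhb, Eci2, Etfdh, Acaa1a and Pdk4. Acadm, Hadh and Etfa, called in neither CD45- sort, were 3.72-fold (3.5 to 3.97), 3.64-fold (3.45 to 3.85) and 2.98-fold (2.83 to 3.14) lower here. With the length trend removed, Acadm, at a log2 ratio of -1.36, and Hadh, at -1.18, were called lower in Prom1-CD49f+CD45- cells too. Slc25a20, Decr1 and Decr2 were not called with library totals or the authors' values, and Slc25a20 not with the length trend removed. The median log2 ratio was -1.70, beside 0.09 for all genes and -0.17 for those above 10 scaled CPM. Hepatocyte and cholangiocyte markers both summed lowest in this library and endothelial markers highest, and their part in these ratios was not tested.

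**Figure D2:**
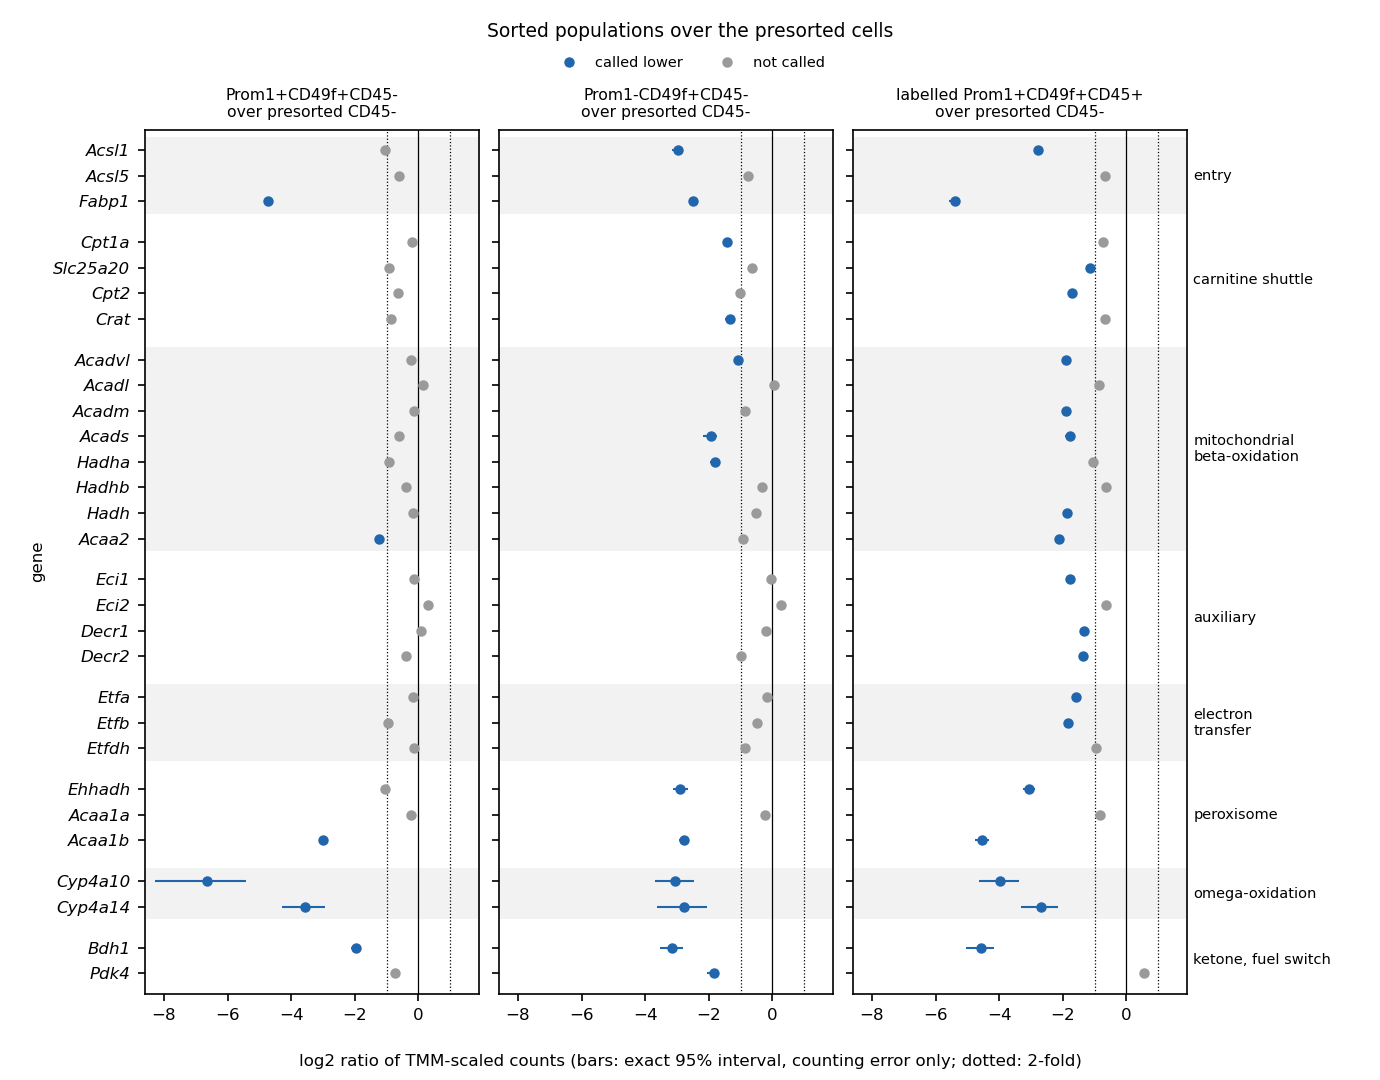
Log2 ratio of each of the 29 genes to the presorted cells in the 3 sorted populations, with exact 95% intervals; dotted lines mark 2-fold, and colour marks genes called lower. Blue points number 6 in Prom1+CD49f+CD45- cells, 13 in Prom1-CD49f+CD45- cells and 19 in the library labelled Prom1+CD49f+CD45+.

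Cells of the CD45- sorts were all chosen for CD49f and were parted by Prom1 at the surface. Their marker sums differed too, 192 against 9149 scaled CPM for endothelial and 59768 against 22441 for cholangiocyte markers. In Prom1+CD49f+CD45- over Prom1-CD49f+CD45- cells, differences with Prom1 and with the mix of cells therefore cannot be told apart. Acsl1, Cpt1a, Acads and Ehhadh were called higher, and Fabp1 and Cyp4a10 lower. Those 4 of 29 are 13.8%, against 15.5% of all genes called higher and 16.5% of genes above 10 scaled CPM; the 2 lower are 6.9%, against 12.7% and 17.2%. Both shares were under the background. The median log2 ratio of the 29 was 0.28, beside 0.45 for all genes and 0.02 for those above 10 scaled CPM. With DESeq2 size factors Cpt1a, at a log2 ratio of 1.07, and Acads, at 1.19, were not called. Bdh1 and Pdk4 fell just short of a call, at ratios of 2.29 (1.77 to 3.0) and 2.16 (1.89 to 2.47).

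These ratios depended on how long the transcript was. Over 13320 genes length and log2 ratio had a Spearman correlation of 0.38, a description across genes that share 2 libraries. The median log2 ratio was -0.89 for the eighth with the shortest transcripts and 0.70 for that with the longest. Fabp1, with the shortest transcript of the 29 at 553 bases, was not called once that trend was removed, with a log2 ratio of -0.88. Acadvl, Acadm and Hadh came to be called higher instead, at 1.34, 1.26 and 1.09, and Cpt1a, at 0.96, was lost. Acsl1, Acads and Ehhadh were higher and Cyp4a10 lower with and without the trend.

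Over the library labelled Prom1+CD49f+CD45+, Prom1+CD49f+CD45- cells were called higher in 11 of the 29 genes and lower in 2. The 11 are 37.9%, against 12.5% of all genes and 14.5% of those above 10 scaled CPM, and the 2 lower, Cyp4a10 and Pdk4, are 6.9%, against 13.1% and 15.8%. The 11 were Acsl1, Acadvl, Acadm, Acads, Hadh, Eci1, Decr1, Etfa, Ehhadh, Acaa1b and Bdh1. Bdh1 led, at 6.15-fold (4.51 to 8.57), followed by Ehhadh. The median log2 ratio was 0.93, beside -0.17 for all genes and -0.02 for those above 10 scaled CPM. Acads and Cyp4a10 were not called with the authors' values, and Acads not with the length trend removed. With the authors' values, which have 1 added, the log2 ratio of Cyp4a10 was -0.73, beside -2.67 with TMM scaling. Each of the 5 comparisons shares a library with others, so their values are not independent.

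**Figure D3:**
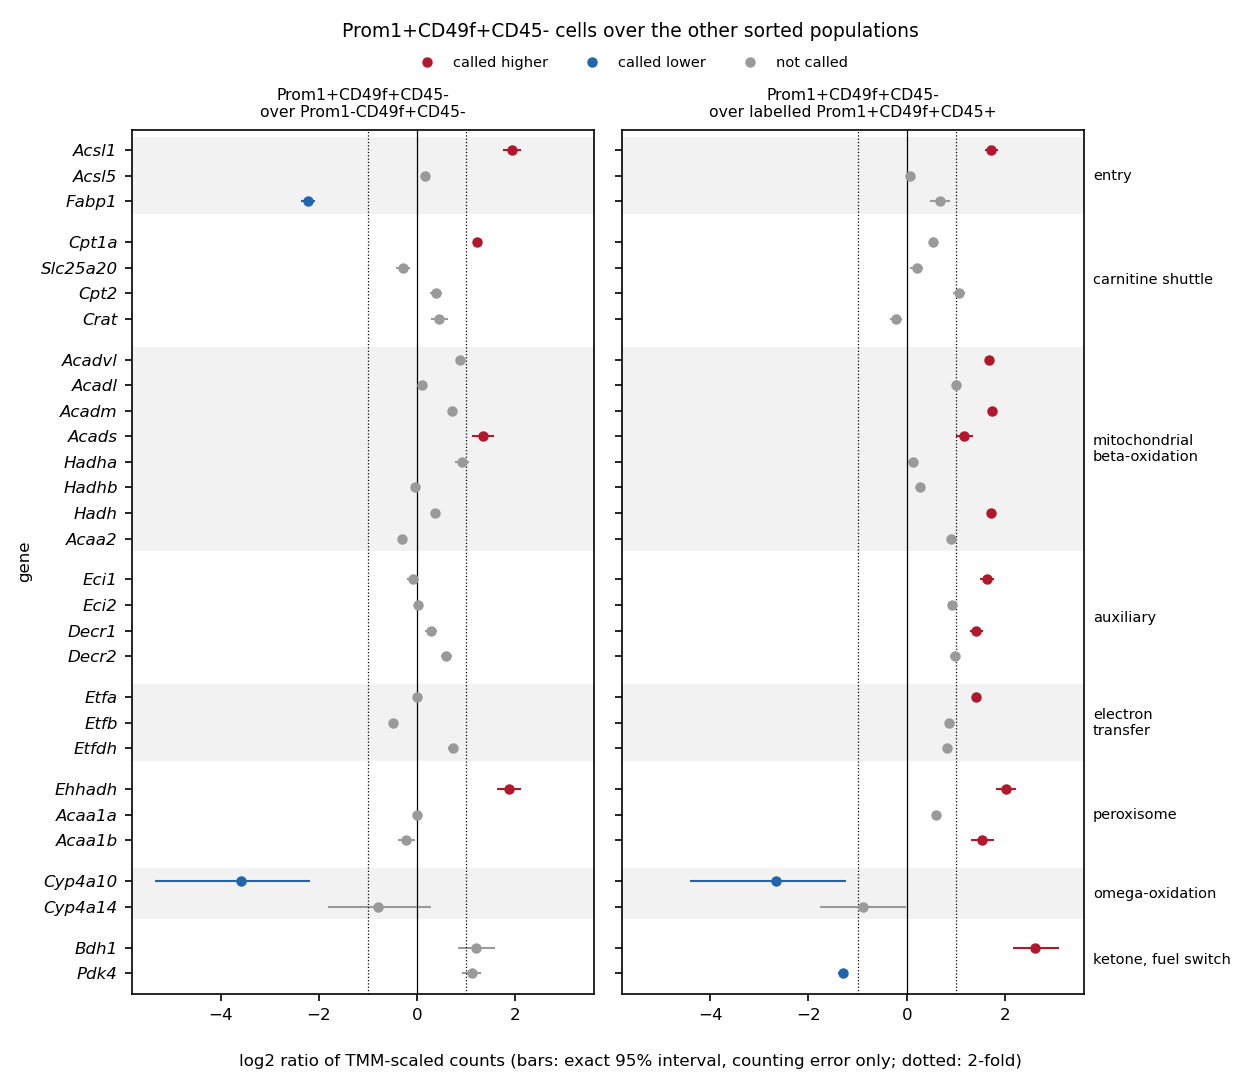
Log2 ratio of each of the 29 genes in Prom1+CD49f+CD45- cells over Prom1-CD49f+CD45- cells (left) and over the library labelled Prom1+CD49f+CD45+ (right), with exact 95% intervals; dotted lines mark 2-fold. On the left 4 genes are called higher and 2 lower, on the right 11 higher and 2 lower.

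Other mitochondrial genes were set beside the pathway. In Prom1+CD49f+CD45- over Prom1-CD49f+CD45- cells the 25 nuclear genes of the respiratory chain had a median log2 ratio of -0.79, with none called higher and 3 lower. The 14 genes of the tricarboxylic acid (TCA) cycle had one of 0.07, with none higher and 1 lower. These lower calls are 12% and 7.14% of the lists, against 12.7% of all genes, and 15.5% of all genes were higher. With the length trend removed the respiratory chain median was 0.33 and that of the fatty acid oxidation genes 0.73, so the opposite signs did not hold. The TCA median turned to -0.08 with DESeq2 size factors and -0.10 with the authors' values. Over presorted cells the respiratory chain medians were -0.50 in Prom1+CD49f+CD45- cells, 0.31 in Prom1-CD49f+CD45- cells, which became -0.70 with the length trend removed, and -0.84 in the library labelled Prom1+CD49f+CD45+. In that last library the fatty acid oxidation genes, at -1.70, lay below both the respiratory chain and the TCA genes, at -0.71. Hepatocyte markers had medians of -4.78 in Prom1+CD49f+CD45- cells, -2.84 in Prom1-CD49f+CD45- cells and -5.33 in the library labelled Prom1+CD49f+CD45+ over presorted cells, in each case further below presorted than the pathway.

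**Figure D4:**
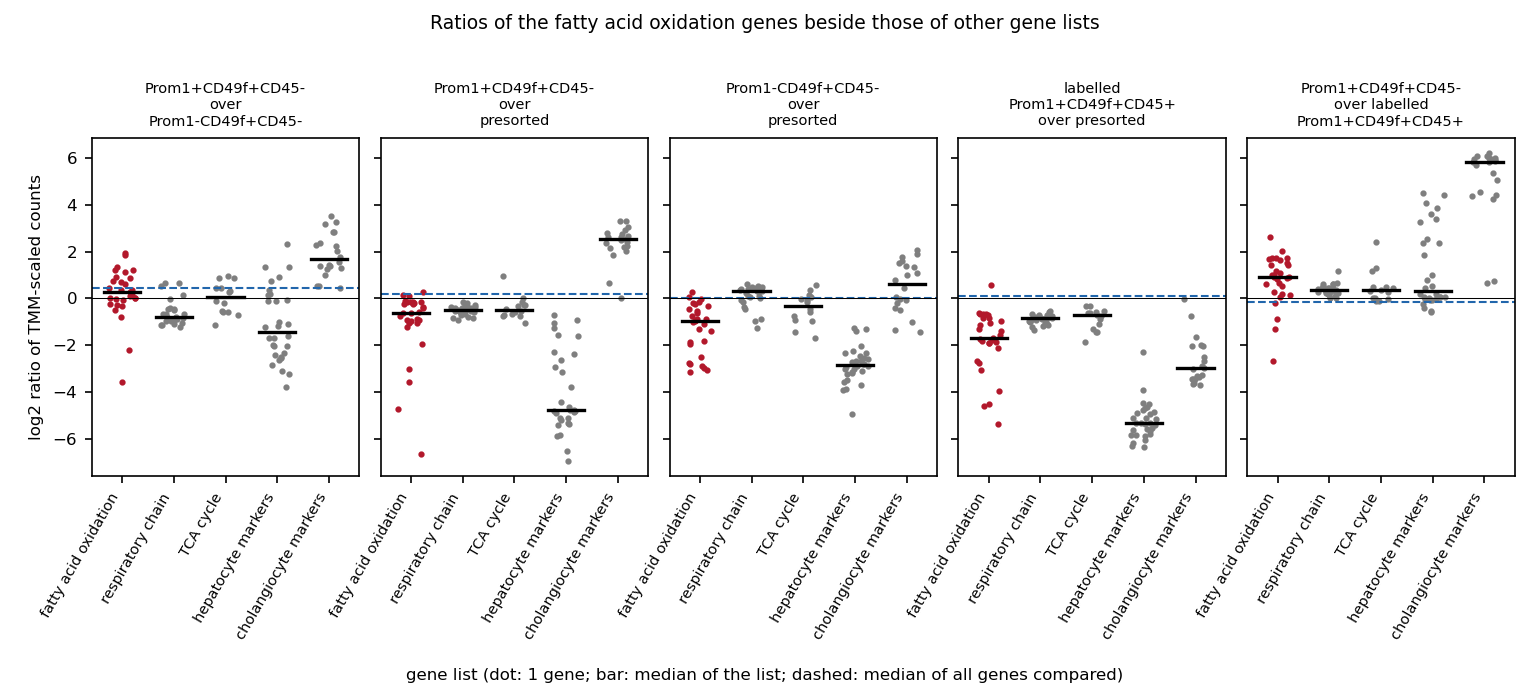
Log2 ratios of the fatty acid oxidation genes (red) beside respiratory chain, TCA cycle, hepatocyte and cholangiocyte marker genes (grey) in the 5 comparisons; each dot is 1 gene, black bars are list medians and the dashed line is the median of all genes compared. Over presorted cells the red medians are -0.61, -0.98 and -1.70 in the order of the panels.

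A further 73 genes of the wider pathway, listed by role, were all compared. In Prom1+CD49f+CD45- over Prom1-CD49f+CD45- cells 13 were called higher, 17.8% against 15.5% of all genes, and 8 lower, 11% against 12.7%, both near the background (median log2 ratio 0.58). In Prom1+CD49f+CD45- over presorted cells 4 were higher, 5.48% against 27.6%, and 32 lower, 43.8% against 15.6% (-0.86). In Prom1-CD49f+CD45- over presorted cells 2 were higher, 2.74% against 9.77%, and 36 lower, 49.3% against 14.1% (-1.26). In the library labelled Prom1+CD49f+CD45+ none was higher, against 23.8% of all genes, and 37 were lower than presorted, 50.7% against 12.1% (-1.12). Prom1+CD49f+CD45- cells over that library had 22 higher, 30.1% against 12.5%, and 7 lower, 9.59% against 13.1% (0.45).

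Of 8 other ketone genes, 3 were called lower in Prom1+CD49f+CD45- cells than in presorted cells, 37.5% against 15.6% of all genes, and none higher. Acat1, the thiolase that supplies and uses acetoacetyl-CoA, stood at 94.2 scaled CPM in Prom1+CD49f+CD45- cells, 145 in Prom1-CD49f+CD45- cells, 92.1 for the library labelled Prom1+CD49f+CD45+, with 226 in presorted cells. It was called 2.4-fold (2.31 to 2.5) lower in Prom1+CD49f+CD45- cells than in presorted cells, though not with library totals, at a log2 ratio of -0.85. Oxct1, the transferase with which other tissues burn ketone bodies, stood at 60.2 scaled CPM in Prom1+CD49f+CD45- cells, 39 in Prom1-CD49f+CD45- cells, 44.2 for the library labelled Prom1+CD49f+CD45+, with 51.9 in presorted cells, and was called in none of these comparisons.

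Of 14 peroxisomal genes outside the 29, 3 were called higher in Prom1+CD49f+CD45- than in Prom1-CD49f+CD45- cells and none lower, and those 3 are 21.4% against 15.5% of all genes and 16.5% of those above 10 scaled CPM. Crot, the carnitine octanoyltransferase, stood at 381 scaled CPM in Prom1+CD49f+CD45- cells, 105 in Prom1-CD49f+CD45- cells, 76 for the library labelled Prom1+CD49f+CD45+, with 448 in presorted cells. Scp2, a sterol carrier with thiolase activity, stood at 358 scaled CPM in Prom1+CD49f+CD45- cells, 391 in Prom1-CD49f+CD45- cells, 165 for the library labelled Prom1+CD49f+CD45+, with 1162 in presorted cells. Scp2 thus did not share the order of Crot. Among the 3 called were Crot, 3.64-fold (3.45 to 3.84), and the acyl-CoA transporter Abcd3, 3.88-fold (3.6 to 4.19). Over presorted cells 9 of the 14, 64.3% against 15.6% of all genes, were lower in Prom1+CD49f+CD45- cells, Scp2 among them, 3.24-fold (3.18 to 3.31), while Crot, at 0.851 (0.832 to 0.87), was not called.

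Genes of fatty acid uptake and acyl-CoA handling split by direction. Cd36, the fatty acid translocase, which endothelium and macrophages express, stood at 171 scaled CPM in Prom1+CD49f+CD45- cells, 1143 in Prom1-CD49f+CD45- cells, 2784 for the library labelled Prom1+CD49f+CD45+, with 2229 in presorted cells. Fabp4, a fatty acid binding protein of fat cells, endothelium and macrophages, stood at 4.61 scaled CPM in Prom1+CD49f+CD45- cells, 949 in Prom1-CD49f+CD45- cells, 264 for the library labelled Prom1+CD49f+CD45+, with 192 in presorted cells. The endothelial and macrophage marker sums were also lowest in Prom1+CD49f+CD45- cells. Fabp4 was higher in Prom1-CD49f+CD45- cells than in the library labelled Prom1+CD49f+CD45+, whereas the endothelial sum was lower. The part of these cells in the levels of Cd36 and Fabp4 was not tested. Dbi, the acyl-CoA binding protein, ran the other way, at 432 scaled CPM in Prom1+CD49f+CD45- cells, 254 in Prom1-CD49f+CD45- cells, 42.9 for the library labelled Prom1+CD49f+CD45+, with 215 in presorted cells. Of 20 such genes 3 were called higher in Prom1+CD49f+CD45- than in Prom1-CD49f+CD45- cells, 15% against 15.5% of all genes, Acsl3, 3.26-fold (2.88 to 3.71), Acsl4, 2.8-fold (2.52 to 3.12), and Acot1, 3.58-fold (3.16 to 4.06), and 7 lower, 35% against 12.7%, among them the liver transporter genes Slc27a2, 4.56-fold (3.97 to 5.26), and Slc27a5, 3.69-fold (2.63 to 5.22). The synthetases Acsl3 and Acsl4 thus lay on the side of Acsl1 and the liver transporters on that of Fabp1.

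Among the mitochondrial enzymes outside the 29, Echs1, the hydratase for short chains, stood at 119 scaled CPM in Prom1+CD49f+CD45- cells, 133 in Prom1-CD49f+CD45- cells, 55.8 for the library labelled Prom1+CD49f+CD45+, with 147 in presorted cells. Acad9, an acyl-CoA dehydrogenase that also serves the assembly of respiratory complex I, stood at 110.2 scaled CPM in Prom1+CD49f+CD45- cells, 50.1 in Prom1-CD49f+CD45- cells, 100.3 for the library labelled Prom1+CD49f+CD45+, with 61.7 in presorted cells. Acadsb, the dehydrogenase for short branched chains, stood at 60.4 scaled CPM in Prom1+CD49f+CD45- cells, 48.2 in Prom1-CD49f+CD45- cells, 78.6 for the library labelled Prom1+CD49f+CD45+, with 95.2 in presorted cells. Of 10 such genes Acad9 and Acad10 were called higher in Prom1+CD49f+CD45- than in Prom1-CD49f+CD45- cells, 20% against 15.5% of all genes, and none lower. The call for Acad9 was lost with DESeq2 size factors, at a log2 ratio of 0.99, with the authors' values, at 0.95, and with the length trend removed, at 0.93.

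Among 14 regulators the coactivator Ppargc1a had the highest ratio in Prom1+CD49f+CD45- cells over Prom1-CD49f+CD45- cells and over presorted cells. Over the library labelled Prom1+CD49f+CD45+ another regulator lay higher, at a log2 ratio of 3.44. Over presorted cells 2 of the 14 were called higher, 14.3% against 27.6% of all genes, and 7 lower, 50% against 15.6%. Ppargc1a, a coactivator that drives mitochondrial and fatty acid oxidation genes, stood at 38.7 scaled CPM in Prom1+CD49f+CD45- cells, 5.09 in Prom1-CD49f+CD45- cells, 5.6 for the library labelled Prom1+CD49f+CD45+, with 7.43 in presorted cells. It was called higher in Prom1+CD49f+CD45- cells than in Prom1-CD49f+CD45- cells, 7.61-fold (6.0 to 9.78), than in the library labelled Prom1+CD49f+CD45+, 6.91-fold (5.8 to 8.29), and than in presorted cells, 5.21-fold (4.61 to 5.9). Ppara, the gene of PPAR alpha itself, stood at 3.68 scaled CPM in Prom1+CD49f+CD45- cells, 1.2 in Prom1-CD49f+CD45- cells, 0.806 for the library labelled Prom1+CD49f+CD45+, with 12.8 in presorted cells, and was called lower than presorted in all 3 sorted populations. Rxra, the partner receptor, stood at 80.8 scaled CPM in Prom1+CD49f+CD45- cells, 38.3 in Prom1-CD49f+CD45- cells, 119 for the library labelled Prom1+CD49f+CD45+, with 204 in presorted cells. Of the kinases that act beside Pdk4, Pdk1 had 56.5, 28, 68.8 and 82 scaled CPM and Pdk2 24.9, 13.6, 22.4 and 58.7, in the order Prom1+CD49f+CD45-, Prom1-CD49f+CD45-, labelled Prom1+CD49f+CD45+ and presorted. Both peaked in presorted cells, unlike Pdk4. Of the regulators 2 were called higher in Prom1+CD49f+CD45- than in Prom1-CD49f+CD45- cells, 14.3% against 15.5% of all genes, Ppargc1a and the bile acid receptor gene Nr1h4, 2.44-fold (2.06 to 2.9), and 1 lower, Pparg, 4.51-fold (3.42 to 5.99).

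The other omega-oxidation genes did not all follow Cyp4a10 and Cyp4a14. Cyp4f14, a hydroxylase of another subfamily, stood at 69.5 scaled CPM in Prom1+CD49f+CD45- cells, 11.7 in Prom1-CD49f+CD45- cells, 1.05 for the library labelled Prom1+CD49f+CD45+, with 22.8 in presorted cells, and was called higher in Prom1+CD49f+CD45- cells than in Prom1-CD49f+CD45- cells, 5.93-fold (5.06 to 6.98), and than in presorted cells, 3.05-fold (2.84 to 3.29). Aldh3a2, the aldehyde dehydrogenase that completes the reaction, stood at 131 scaled CPM in Prom1+CD49f+CD45- cells, 54.2 in Prom1-CD49f+CD45- cells, 85.2 for the library labelled Prom1+CD49f+CD45+, with 173 in presorted cells. Cyp4v3 stood at 51.2 scaled CPM in Prom1+CD49f+CD45- cells, 27.9 in Prom1-CD49f+CD45- cells, 16.1 for the library labelled Prom1+CD49f+CD45+, with 101 in presorted cells. Of the 7 genes Cyp4f14 and Aldh3a2 were called higher in Prom1+CD49f+CD45- than in Prom1-CD49f+CD45- cells, 28.6% against 15.5% of all genes, and none lower. Over presorted cells 4 of the 7 were called lower in Prom1+CD49f+CD45- cells, 57.1% against 15.6%, and Cyp4f14 alone higher.

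**Figure D5:**
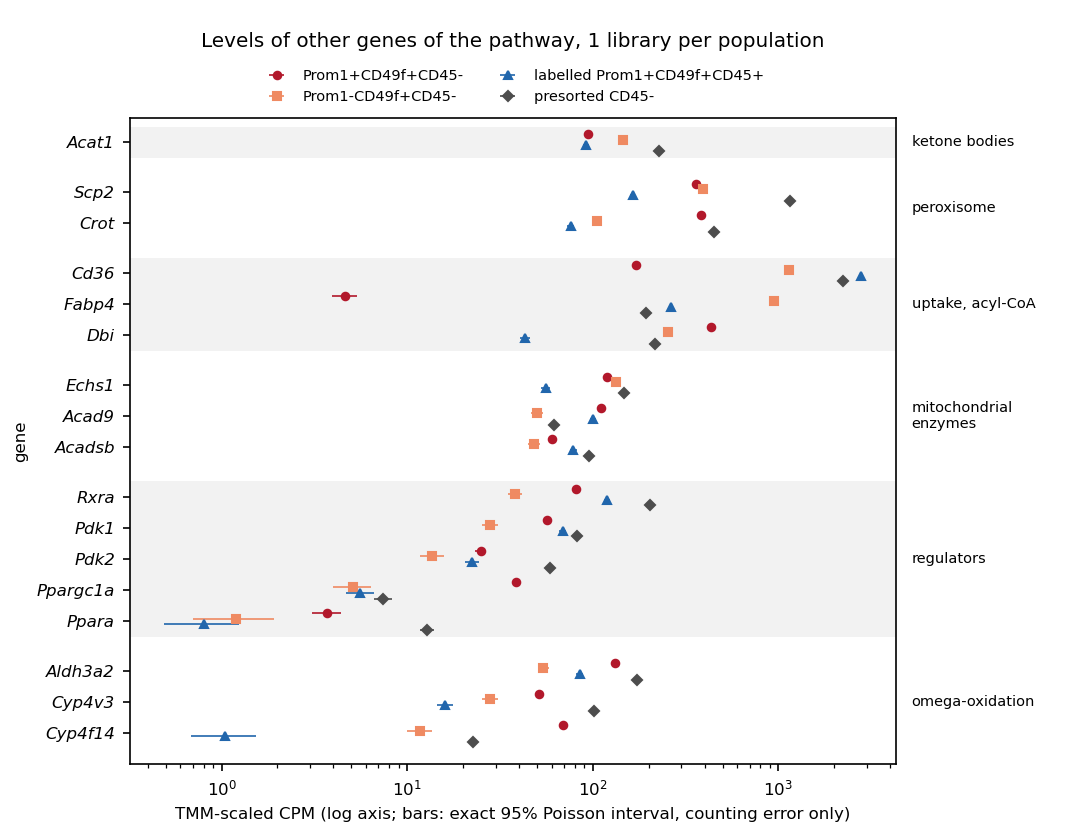
Level of other genes of the pathway in the 4 libraries, in TMM-scaled CPM on a log axis with exact 95% Poisson intervals, grouped by role. Ppargc1a is highest in Prom1+CD49f+CD45- cells, at 38.7 scaled CPM, above the other sorted populations and the presorted cells.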

How the data were processed

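RNA of 4 liver cell populations was sequenced, 1 library of 2 pooled mice each, from polyA-selected RNA and a stranded kit according to the labels; a title that names Quant-seq, which tags 3′ ends, was not resolved. Submitters' processing notes name TopHat2, Partek 3 and mm10; no source here states the annotation, settings or strand handling. Gene values deposited by the authors were estimated counts, 50.5% to 60.5% of them whole in a library, with a second table of normalized values. Those deposited normalized values were CPM with 1 added, and gene counts made up 67.1% to 88.4% of the divisor. The column named CD45 was read as the presorted population, since no other column remained for it.

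Estimated counts were rounded and scaled by TMM in edgeR 4.0.16 (R 4.3.3) over genes with at least 10 counts in a library. Ratios have exact 95% conditional binomial (Clopper-Pearson) intervals and levels exact Poisson intervals (scipy 1.17.1); reads without molecular identifiers are not independent molecules. The code for intervals and calls was run on simulated Poisson counts of genes with many counts. The interval assumes such counts, so this checks the code only and not the spread in these data. Symbols, positions and lengths came from GENCODE vM21 for 40254 of 41128 identifiers, and every one of the 29 matched. All genes were compared in 5 comparisons. Members and lists were chosen with earlier results of these data known. Named are all 29, of each other pathway list the 3 highest by mean level, those that show a split, and Ppara and Ppargc1a; a few other genes the rule names are not reported here; Alb and Krt19 stand for marker lists. Alternatives were library totals, DESeq2 1.42.0 size factors, the authors' values, other count minimums (none, 50), other folds (1.5, 3) and removal of the length trend. With the authors' values no interval was made, so a call there needed only the ratio itself to lie beyond 2-fold. The 1 added to those values draws ratios of genes with low levels toward 1.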

Additional observations from a re-analysis of the deposited data

How the results depend on the processing

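With 1 library per population no result can be checked against replicates, and depth limits Cyp4a10 and Cyp4a14 most. No paired analysis was possible because each population had 1 library. The sign of the median log2 ratio of the 29 genes held in all 5 comparisons with library totals, DESeq2 size factors, the authors' values and the length trend removed. Under these no called gene of the 29 turned its direction. The other count minimums and folds could not move the median, so they are no check of its sign. A count minimum alters no ratio, and each of the 29 genes had over 50 counts in a library. No count minimum and a minimum of 50 could thus change no ratio or call of these genes. They moved the shares of all genes: over presorted cells, those called higher were 18.7% and 19.9% for Prom1+CD49f+CD45-, 6.91% and 8.93% for Prom1-CD49f+CD45- and 18% and 11.5% for the library labelled Prom1+CD49f+CD45+, with no minimum and with 50, and those called lower 10% and 20.1%, 9.07% and 19.2%, and 7.76% and 16%.

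With library totals, the median was 0.51 for Prom1+CD49f+CD45- over Prom1-CD49f+CD45- cells, with 7 genes called higher, against 20.9% of all genes. Over presorted cells the medians were -0.19 for Prom1+CD49f+CD45-, -0.80 for Prom1-CD49f+CD45- and -1.36 for the library labelled Prom1+CD49f+CD45+. DESeq2 size factors gave 0.13 for Prom1+CD49f+CD45- over Prom1-CD49f+CD45- cells, with 2 called higher, against 12.8% of all genes. They gave -0.87 for Prom1-CD49f+CD45- over presorted cells. The authors' normalized values gave 0.11 for Prom1+CD49f+CD45- over Prom1-CD49f+CD45- cells, and -0.39, -0.60 and -1.23 for the sorted populations over presorted cells in the order above. For Prom1+CD49f+CD45- over the library labelled Prom1+CD49f+CD45+ they gave 0.70, with 1 gene lower, against 13.5% of all genes. Removal of the length trend gave 0.73 for Prom1+CD49f+CD45- over Prom1-CD49f+CD45- cells, with 1 gene lower, against 9.56% of all genes. It gave -1.36 for Prom1-CD49f+CD45- and -1.43 for the library labelled Prom1+CD49f+CD45+ over presorted cells. For Prom1+CD49f+CD45- over the library labelled Prom1+CD49f+CD45+ it gave 0.79. At 1.5-fold, 10 genes were higher in Prom1+CD49f+CD45- over Prom1-CD49f+CD45- cells, against 25.4% of all genes. Over presorted cells 13 were lower, against 22.2%, and over the library labelled Prom1+CD49f+CD45+ 18 were higher, against 17.2%. At 3-fold, 2 were higher in the first comparison, against 6.92%. In the last, 6 were higher, against 8.75%, and 0 lower, against 8.61%.

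Library totals moved the median of all genes by 0.23 in Prom1+CD49f+CD45- over Prom1-CD49f+CD45- cells and by 0.42, 0.18 and 0.34 in the sorted populations over presorted cells. DESeq2 size factors moved it by -0.15 in the first of these and by 0.12 in Prom1-CD49f+CD45- over presorted cells, and the authors' values by -0.33 in the first and by 0.27 in the library labelled Prom1+CD49f+CD45+ over presorted cells. Of all called genes in Prom1+CD49f+CD45- over Prom1-CD49f+CD45- cells 54.8% were higher, 66.9% with library totals; in Prom1-CD49f+CD45- over presorted cells 40.9% were, 52.5% with library totals and 55.3% with the authors' values. Of 145 ratios of the 29 genes, library totals ended 6 calls and added 5, DESeq2 size factors ended 3 and added 2, the authors' values ended 7, and removal of the length trend ended 6 and added 12. Calls with the authors' values rest on the ratio without an interval, so their number is not on the same rule as the others. The cause of these changes was not tested.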
